A study of Mus musculus with 12 samples.

Results

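Voltage-gated and potassium ion channel genes were read from newborn mouse forebrain and from forebrain tumors of 4 genotypes. Members were picked by symbol, under a rule chosen with earlier results of these data known. It took probe sets of the array that carried 1 gene symbol starting with Kcn (potassium channels), with Scn (voltage-gated sodium channels) or with Cacna, Cacnb or Cacng (voltage-gated calcium channels and the related Cacng proteins). The rule found 126 genes among the 19938 genes of the table, on 145 probe sets. Where a gene had several probe sets, the one with the highest mean was kept. Tests were limited to genes bright enough to pass a floor, the 40th percentile of an array, on 3 or more of the 12 arrays. That floor kept 110 of the 126 members and 14195 genes in all. With 3 arrays a genotype, a gene dim in GBS could pass it through another genotype. The other 16 members, among them Kcnj2, Kcnj6, Kcnh1, Kcnip2 and Scn4b, were too dim to be tested. Of the 126 members, 3 (Kcnd3os, Kcnmb4os1 and Kcnmb4os2) are RNAs from the strand opposite a channel gene and encode no channel.

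Ion channels set the electrical behaviour of cells. Potassium channels pull the membrane voltage down: leak channels of the Kcnk family and inward rectifiers of the Kcnj family hold the resting voltage, and voltage-gated Kv channels end the action potential. Sodium channels of the Scn family start the action potential, and calcium channels of the Cacna1 family turn it into calcium entry that drives transmitter release and gene expression. Pore subunits carry the current, while alpha2delta, beta, Kcnip, Kcnab and Kcnmb subunits steer their traffic and gating. In newborn forebrain many neuronal channel genes are being switched on as young neurons mature and leave behind the dividing radial glia they come from.

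The study asked what 2 alleles do to the mouse forebrain, as a model of the childhood brain tumor named embryonal tumor with multilayered rosettes. Each genotype had 3 mice, collected on postnatal day 0, with 1 array a mouse, labelled as biological replicates. Control mice had the genotype Ctnnb1(ex3)Fl/+SmoM2Fl/+, that is, both floxed alleles without Cre. GB mice were hGFAP-cre::Ctnnb1(ex3)Fl/+, in which Cre removes exon 3 of Ctnnb1 and leaves a beta-catenin that escapes degradation. GS mice were hGFAP-cre::SmoM2Fl/+, with a Smoothened that signals without ligand. GBS mice were hGFAP-cre::Ctnnb1(ex3)Fl/+SmoM2Fl/+, and their arrays are labelled as tumor, whereas the other 9 hold forebrain. The human GFAP promoter drives Cre in radial glia, so recombination reaches those cells and their descendants and leaves other cells of the tissue unrecombined. Only Control lacks Cre, so Cre itself cannot be told apart from the alleles in a comparison with Control.

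GB replicate 2, GS replicate 3 and Control replicate 3 stood apart from their groups in a shared direction, with correlations of their deviations across genes from 0.739 to 0.833. GBS replicate 1 deviated the same way less closely, with correlations of 0.516, 0.507 and 0.446 with these arrays. Results are therefore given with all 12 arrays, with counts and the main uncalled genes also given without the first 3. That setting keeps GBS replicate 1, so it takes arrays only from the groups set against GBS. Xist, high in female tissue, was above 8 on the log2 scale in 2 of 3 GB and 2 of 3 GS arrays and in 0 of 3 GBS and 0 of 3 Control arrays. The forebrain marker Emx1 was at 7.90 to 8.48 and Lhx2 at 7.76 to 8.93 on the 12 arrays. Mean levels of the forebrain list (7.19 to 7.88) and of the midbrain and hindbrain list (6.62 to 7.24) overlapped, and levels of different genes are not comparable, so they do not settle the region. Levels below are log2 values made by RMA, differences are log2 differences between group means of 3 arrays with their standard errors (SE), and a gene "rose" or "fell" where its p from limma, adjusted for the 14195 genes by the Benjamini-Hochberg method, was below 0.05. The levels of different genes are not compared, since probe sets differ in brightness.

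GBS set against Control takes the 2 alleles together with Cre, and tumor against forebrain. In the tumors 3 channel genes were higher and 21 were lower of 110 tested. Over all genes tested the shares went the other way: 11% were higher and 4.35% lower, against 2.73% and 19.1% of the channel genes. The median difference was -0.31 over the tested channel genes and -0.10 over all tested genes, and 99 of the 110 channel genes had a negative difference. The changes were modest: the 21 falls lay between -0.85 (Cacng3) and -0.28 (Kcnmb4), and Kcnk9, at 2.27-fold, was the one called channel gene past 2-fold. For 73 of the 110 genes (66.4%) the 3 GBS arrays all lay below the 3 Control arrays, where 35.7% of all tested genes did so, and for 6 they all lay above, where 28.8% of all tested genes did. These counts leaned on processing and on single arrays. Of the 21 falls 13 were kept after quantile normalization, 10 with arrays centred on their medians and 6 with replicate number as a block. In these settings 3.52%, 2.87% and 1.34% of all tested genes were lower. Cacna1d was the only fall left past the test without GBS replicate 2, without Control replicate 1 and without Control replicate 2, where 0.549%, 0.803% and 1.18% of all tested genes were lower, and 5 falls were left without Control replicate 3 (Cacna1d, Cacng4, Kcna3, Kcnip3 and Kcnq5; 0.937% of all tested genes). Without GB replicate 2, which enters this comparison only through the shared estimate of the spread, 57 channel genes were lower, and without the 3 arrays that deviate together 59 were, beside 20.2% and 18.9% of all tested genes. All 21 falls were among the 57 and among the 59. The 3 arrays were picked from these same values, and each had the lowest mean level of the neuron markers described below in its group. That level was 7.80 in GB replicate 2, 8.68 in GS replicate 3 and 8.76 in Control replicate 3. Leaving them out thus raises the neuron-marker means of the groups set against GBS. Calls in that setting, here and below, are not separate support.

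**Figure D1:**
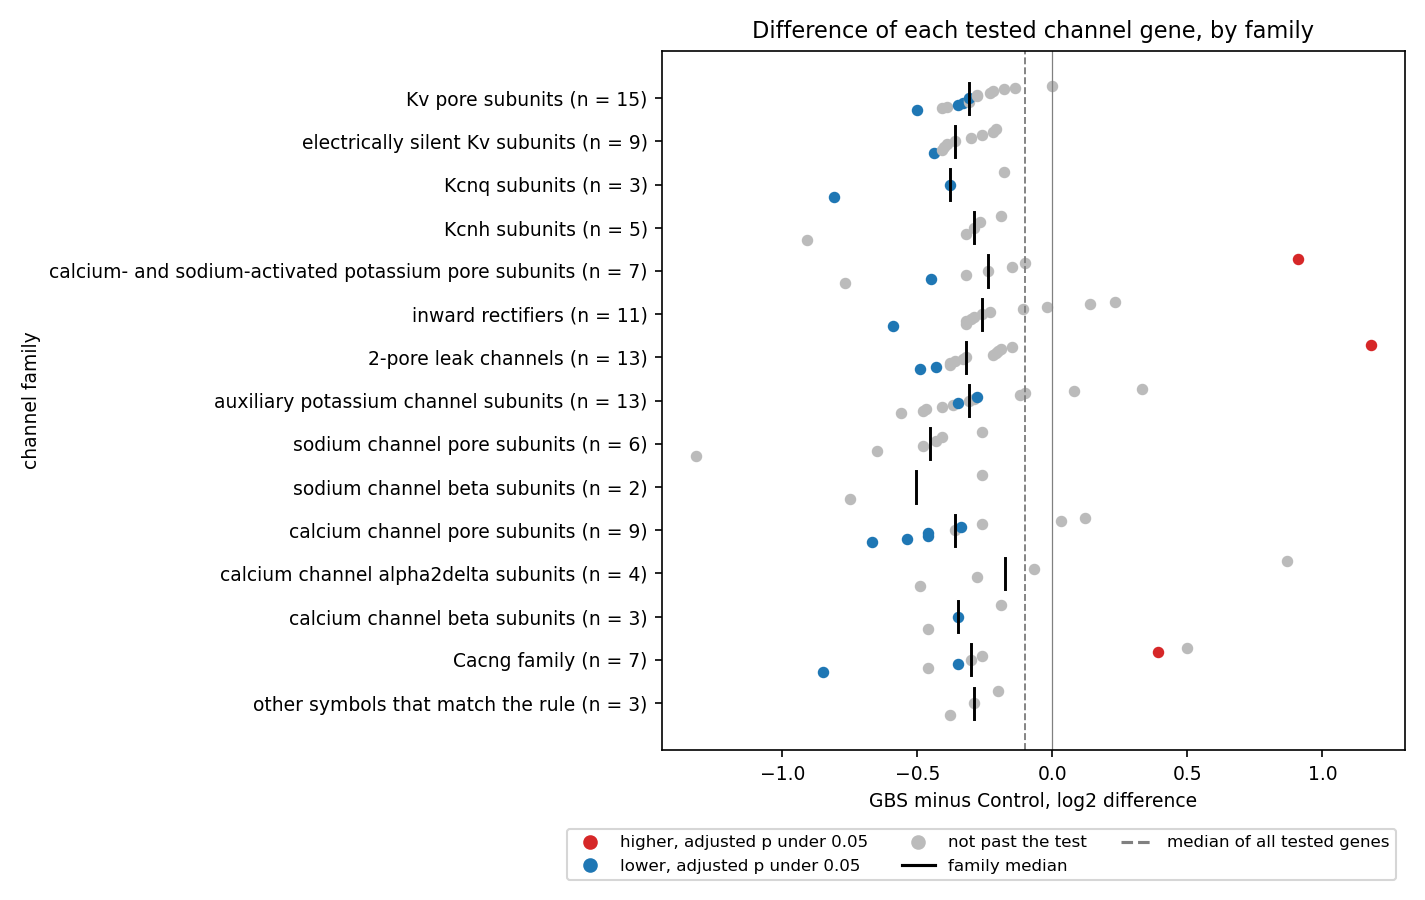
GBS minus Control log2 difference (horizontal axis) of each of the 110 tested channel genes, 1 point a gene, grouped by family (vertical axis), with black bars at family medians and a dashed line at the median of all tested genes. Blue points fell, red points rose and grey points did not pass the test; family medians run from -0.51 (sodium channel beta subunits) to -0.18 (alpha2delta subunits), all left of the -0.10 of all tested genes, and 3 red points lie to the right.

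The dim end of the arrays moved with this comparison. Olfactory and vomeronasal receptor genes, which are mostly silent in brain, had a median difference of -0.37 over 207 tested and 21 called lower. The median over 1190 receptor genes lay between 4.839 and 4.92 in the GBS arrays and between 5.117 and 5.23 in the Control arrays. All tested genes were split at the median of their mean levels. Above it 11 of 50 channel genes fell with a median of -0.34, against a median of 0.04 and 4.24% lower among all tested genes there. Below it 10 of 60 fell with a median of -0.29, against -0.16 and 4.45%. With each array's receptor level as a covariate, 28 channel genes were lower in GBS, 13 of them among the 21, where 7.37% of all tested genes were lower and 5.56% higher. The falls of Kcnk1, Kcnk2, Kcnj10, Kcnc1, Kcnd3, Kcng4, Kcnt1 and Cacna1g were not called with it. The receptor levels of GBS and Control do not overlap, so this covariate extrapolates, and the part of this shift in the channel differences was not tested otherwise.

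Cell type markers moved too. Of 15 tested markers of postmitotic neurons 4 fell (Myt1l, Gap43, Mapt and Elavl3) and 0 rose in GBS against Control, with a median of -0.56. Their mean level per array was 8.76 to 9.05 in Control, 7.80 to 9.02 in GB, 8.68 to 9.43 in GS and 8.06 to 8.74 in GBS. Interneuron markers fell for 4 of 10, and 9 of 14 proliferation markers and 6 of 12 progenitor markers rose, with 1 progenitor marker lower. The mean proliferation level was 6.83 to 6.95 in Control and 7.93 to 8.64 in GBS. In the remaining marker lists higher and lower were 0 and 2 of 6 for the oligodendrocyte lineage (median -0.39), 2 and 1 of 6 for astrocytes, 0 and 0 of 5 for microglia and macrophages, 1 and 0 of 8 for endothelium and pericytes, and 1 and 0 of 5 for choroid plexus. They were 1 and 0 of 4 for meninges and fibroblasts, 0 and 0 of 2 for erythroid cells, 1 and 0 of 7 for striated muscle, 2 and 0 of 5 for forebrain, and 0 and 0 of 4 for midbrain and hindbrain. RMA gives every probe set a value above 0, so no marker reads 0. In this bulk tissue fewer cells of a type and less RNA per cell cannot be told apart, and the part of cell makeup in the channel differences was not tested.

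Leak channels held the largest rise. Kcnk9 (probe set 10429295) encodes an acid-sensitive 2-pore leak channel of the resting voltage. Its log2 values were 7.76, 8.30 and 8.01 in GBS, 6.86, 6.74 and 6.92 in Control, 7.48, 7.03 and 7.49 in GB, and 7.11, 7.08 and 7.08 in GS. Every GBS array lay above all 9 others, and GB arrays lay above Control arrays as well. The GBS mean was 8.02 ± 0.271 (SD, n = 3) against 6.84 ± 0.0901 (SD, n = 3) in Control, a difference of 1.18 ± 0.151 (SE; limma adjusted p = 0.000862; 95% interval 0.85 to 1.52). The call held under each of the 22 other settings tried, with adjusted p up to 0.0063. Against GS the rise was 0.93 (limma adjusted p = 0.00601) and also held in all 22. Against GB it was 0.69 (limma adjusted p = 0.0186) and held in 18, with adjusted p up to 0.135, ending among others without GBS replicate 2.

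Of the 12 other tested Kcnk genes 2 fell, and all 12 had a negative difference from Control. Kcnk2, a leak channel gated by membrane stretch and lipids, was at 6.93, 6.50 and 6.97 in GBS and at 7.35, 7.22 and 7.28 in Control (-0.49, limma adjusted p = 0.0218). Kcnk1, a weak leak channel, was at 7.37, 7.00 and 7.18 in GBS and at 7.73, 7.59 and 7.53 in Control (-0.43, limma adjusted p = 0.0261). For both genes the 3 GBS arrays lay below all 9 others. Both calls ended without GBS replicate 2, without any 1 Control array and with the receptor level as a covariate, that of Kcnk1 also without GBS replicate 3.

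Calcium-activated and sodium-activated potassium channels were split. Kcnn2 encodes a small-conductance channel that opens on calcium and sets the pause after an action potential. Its values were 7.75, 8.17 and 7.81 in GBS, 7.37, 6.83 and 6.79 in Control, 7.45, 6.53 and 7.56 in GB, and 7.39, 7.22 and 6.84 in GS. The GBS arrays lay above all others, yet the spread inside Control, GB and GS was wide. The rise from Control was 0.91 ± 0.269 (SE; limma adjusted p = 0.0437), and it held in only 9 of 22 settings, with adjusted p up to 0.546 (receptor level as a covariate, difference 0.24). Leaving out any 1 GBS or Control array, GS replicate 1 or 2, or GB replicate 1 ended it, while without the 3 deviating arrays it was 0.81 (limma adjusted p = 0.0032). Kcnt1, a sodium-activated channel, fell by 0.45 on the log2 scale (limma adjusted p = 0.0314), from 6.63, 6.90 and 6.61 in Control to 6.37, 6.08 and 6.35 in GBS. That call ended without GBS replicate 2 or 3 and without any 1 Control array. It also ended with the receptor level as a covariate (-0.41, limma adjusted p = 0.114) and with arrays centred on their medians. Kcnma1, the large-conductance channel opened by calcium and voltage together, was at 6.95, 6.47 and 7.11 in GBS and at 7.69, 7.67 and 7.48 in Control, with no overlap. Its difference of -0.77 did not pass (limma adjusted p = 0.0844) with GB replicate 2 at 6.98 and GS replicate 3 at 7.09 widening the spread, and without the 3 deviating arrays it was -0.84 (limma adjusted p = 0.00229). A second Kcnma1 probe set lay between 4.24 and 4.94 on all arrays, near the level of the receptor genes, and is not read here.

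**Figure D2:**
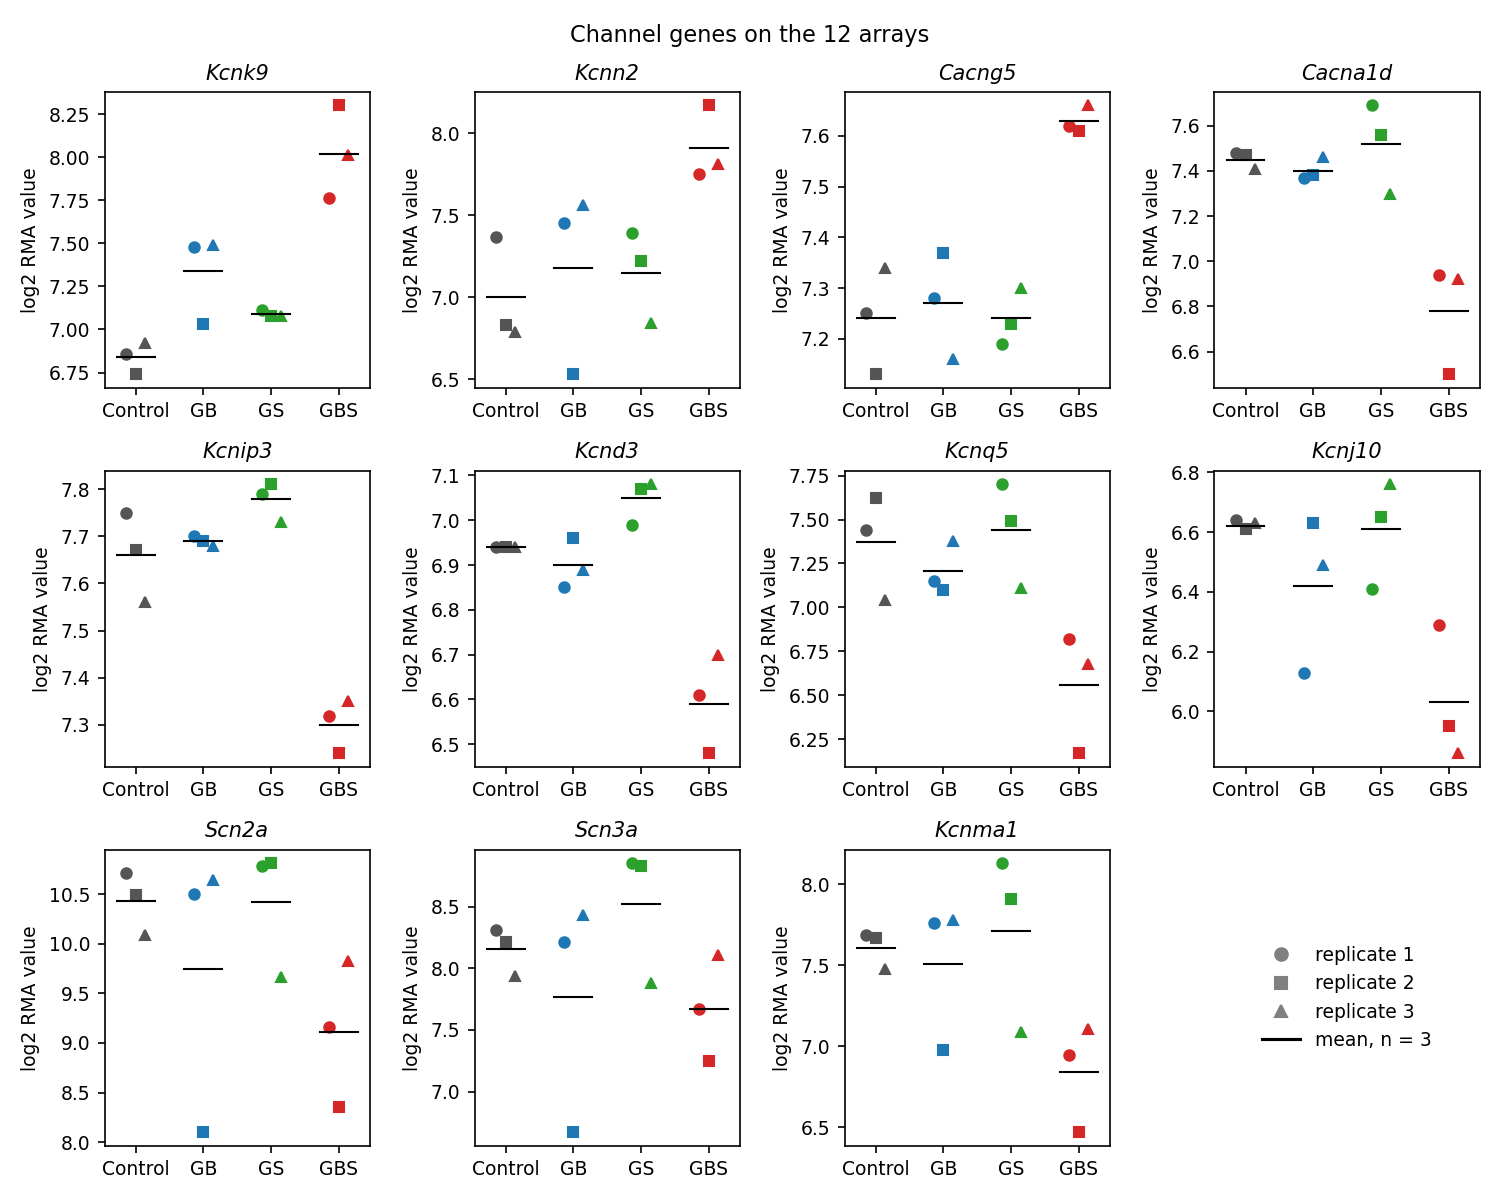
Log2 RMA value (vertical axis) of 11 channel genes on the 12 arrays, grouped by genotype (horizontal axis, 3 arrays each), with the marker shape giving the replicate number and a line at each group mean. Kcnk9, Kcnn2 and Cacng5 are highest in the 3 GBS arrays, Cacna1d, Kcnip3, Kcnd3 and Kcnq5 are lowest there, and for Scn2a, Scn3a and Kcnma1 GB replicate 2 and GS replicate 3 lie with or below GBS arrays.

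The Cacng family holds proteins related to a calcium channel subunit of muscle, most of which escort AMPA-type glutamate receptors to synapses. Cacng5 (probe set 10392374) rose, while Cacng3 and Cacng4 fell. Cacng5 was at 7.62, 7.61 and 7.66 in GBS, at 7.25, 7.13 and 7.34 in Control, at 7.28, 7.37 and 7.16 in GB, and at 7.19, 7.23 and 7.30 in GS. The GBS arrays were tightly grouped and lay above all 9 others. The difference from Control was 0.39 ± 0.0873 (SE; limma adjusted p = 0.0158), ending without GBS replicate 2 and without Control replicate 1 or 2 (adjusted p up to 0.0638). Cacng3 was at 5.38, 4.97 and 5.62 in GBS and at 6.07, 6.39 and 6.05 in Control (-0.85 ± 0.215 SE, limma adjusted p = 0.0265). Its GBS values lay near the dim end, with GBS replicate 2 close to the receptor median of that array (4.839). They were lower than those of Kcnip2 in GBS (5.91, 5.91 and 5.94), a gene too dim to be tested. Cacng4 measured 8.07, 8.02 and 8.07 in GBS, against 8.39, 8.51 and 8.31 in Control (-0.35, limma adjusted p = 0.0196). Both falls ended without GBS replicate 2 and without Control replicate 1 or 2, that of Cacng3 also without GBS replicate 1 or Control replicate 3. Both also ended with arrays centred on their medians. Cacng7, chosen after its values were seen, was at 8.29, 8.50 and 8.60 in GBS and at 8.02, 8.08 and 7.80 in Control (0.50, limma adjusted p = 0.0847), and was called without the 3 deviating arrays.

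Because both mutant alleles act through transcription factors, promoters were searched for short cores of their binding sites and of the neuronal repressor element RE1, on both strands. The cores were CTTTGAT or CTTTGAA for TCF/LEF, the partners of beta-catenin, CCACCCA for GLI, the output of Smoothened, and CAGCACC and GGACAGC for the left and right parts of RE1; no core contains another. RefSeq promoter windows of build GRCm38.p6, 250 bases before to 50 after a transcript start, were matched for 96 of the 126 members (131 windows). TCF/LEF, GLI, RE1 left and RE1 right cores were in 5.34%, 14.5%, 7.63% and 9.16% of these windows and in 8.65%, 9.3%, 7.14% and 6.56% of all 32851 windows. Members' windows are richer in G and C, with a median of 58.0% against 52.7%. Of the 25 windows of the 15 matched genes that fell in GBS against Control, 0 held the GLI core, 1 the TCF/LEF core (Kcnk2), 2 the left RE1 core and 4 the right one. Of the genes that rose only Cacng5 had matched windows, so Kcnk9 and Kcnn2 were not searched. Both windows of Cacng5 held the GLI core. Of the 3 windows of Kcnip3, a fall described below, 1 held the right RE1 core and the others held no core. Neither window of Cacna1d, also a fall, held any core. For the Cacng5 windows and the Kcnip3 window with a core, the 250 bases before the start are printed. They are given on the gene's strand, which is the minus strand, with the core in capitals (TGGGTGG is CCACCCA on the other strand). A match is a description of the letters, not of a bound site.
Cacng5, chr11:107915056-107915305: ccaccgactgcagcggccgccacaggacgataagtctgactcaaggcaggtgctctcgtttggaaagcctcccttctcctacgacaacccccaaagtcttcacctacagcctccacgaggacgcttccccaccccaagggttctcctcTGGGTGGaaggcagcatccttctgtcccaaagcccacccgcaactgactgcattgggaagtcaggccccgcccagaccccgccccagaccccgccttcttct
Cacng5, chr11:107911363-107911612: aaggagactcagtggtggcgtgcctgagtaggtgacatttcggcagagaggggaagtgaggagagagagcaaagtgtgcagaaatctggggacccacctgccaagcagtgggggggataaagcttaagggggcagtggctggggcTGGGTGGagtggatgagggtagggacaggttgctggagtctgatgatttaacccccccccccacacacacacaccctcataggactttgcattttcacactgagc
Kcnip3, chr2:127522095-127522344: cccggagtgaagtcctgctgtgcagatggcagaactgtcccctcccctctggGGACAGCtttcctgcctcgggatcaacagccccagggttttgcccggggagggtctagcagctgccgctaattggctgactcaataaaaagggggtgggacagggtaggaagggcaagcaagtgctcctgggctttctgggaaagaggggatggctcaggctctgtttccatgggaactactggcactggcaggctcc

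Among calcium channel pore subunits 5 of 9 tested fell and 0 rose. They included both L-type pores of brain, Cacna1d and Cacna1c, which couple depolarisation to gene expression, the N-type pore Cacna1b of nerve terminals, and the T-type pores Cacna1g and Cacna1h, which open near the resting voltage. Cacna1d (probe set 10418355) was at 6.94, 6.50 and 6.92 in GBS, at 7.48, 7.47 and 7.41 in Control, at 7.37, 7.38 and 7.46 in GB, and at 7.69, 7.56 and 7.30 in GS. All 3 GBS arrays lay below the 9 others, with GBS replicate 2 the lowest. The difference from Control was -0.67 ± 0.131 (SE; limma adjusted p = 0.0085; 95% interval -0.96 to -0.38), and it held in all 22 other settings, with adjusted p up to 0.0372. Cacna1c was at 6.68, 6.45 and 6.94 in GBS and at 7.27, 7.34 and 7.08 in Control (-0.54, limma adjusted p = 0.0374). Cacna1b measured 7.05, 6.86 and 7.22 in GBS, against 7.47, 7.60 and 7.44 in Control (-0.46, limma adjusted p = 0.0246). Neither pair of groups overlapped. Cacna1g was at 6.68, 6.42 and 6.48 in GBS and at 7.00, 6.91 and 7.06 in Control (-0.46, limma adjusted p = 0.0294), and Cacna1h, chosen after its values were seen, fell by 0.34 on the log2 scale (limma adjusted p = 0.0459). Those 4 calls ended without GBS replicate 2 or any 1 Control array, those of Cacna1b and Cacna1c also without GBS replicate 1, that of Cacna1g without GBS replicate 3, and that of Cacna1c without GS replicate 1 or 2 or GB replicate 1. The receptor level as a covariate ended that of Cacna1g (-0.26, limma adjusted p = 0.24). Centring arrays on their medians ended those of Cacna1b and Cacna1c. The call of Cacna1h held in 9 of 22 settings. The P/Q-type pore Cacna1a of nerve terminals was at 7.29, 7.65 and 7.36 in GBS and at 7.38, 7.36 and 7.21 in Control, with overlapping groups (0.12, limma adjusted p = 0.372; -0.03 with the receptor level as a covariate).

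Among auxiliary calcium channel subunits 1 of 7 tested passed, and it fell. Of 3 tested beta subunits, which bring pores to the membrane, Cacnb1 fell from 7.37, 7.20 and 7.19 in Control to 6.99, 6.76 and 6.97 in GBS (-0.35, limma adjusted p = 0.0342), a call that ended without GBS replicate 2 or 3, GS replicate 2 or any 1 Control array. None of the 4 alpha2delta subunits passed limma's test, and 1 of them had an unadjusted p under 0.05. Cacna2d1, the most studied one and the target of gabapentin, was at 8.18, 7.68 and 8.66 in GBS and at 8.91, 8.62 and 8.45 in Control (-0.49, limma adjusted p = 0.479; -0.59 and 0.0468 without the 3 deviating arrays). Cacna2d3 differed in the other direction, at 8.44, 8.49 and 8.86 in GBS and at 7.63, 8.07 and 7.48 in Control (0.87, limma adjusted p = 0.0953). Its groups did not overlap, and without the 3 deviating arrays it was called higher.

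Sodium channel genes had the most negative family medians and no call against Control over all 12 arrays. Across 6 tested pore subunits the median was -0.46, with all 6 negative, and 2 had an unadjusted p under 0.05. Scn2a, the main sodium channel of young excitatory neurons, was at 9.16, 8.35 and 9.83 in GBS, at 10.71, 10.49 and 10.09 in Control, at 10.50, 8.10 and 10.64 in GB, and at 10.78, 10.81 and 9.67 in GS. GBS and Control did not overlap, but GB replicate 2 was lower than every GBS array. The difference was -1.32 ± 0.62 (SE; limma adjusted p = 0.138; 95% interval -2.68 to 0.05), and without the 3 deviating arrays it was -1.49 (limma adjusted p = 0.0037). Scn2a has 14 probe sets, of one gene and so not replicates; all 14 had a negative difference, from -1.60 to -0.40, and for 10 the GBS and Control arrays did not overlap. Scn3a, a channel of the embryonic brain, was at 7.67, 7.25 and 8.11 in GBS and at 8.31, 8.21 and 7.94 in Control (-0.48, limma adjusted p = 0.369; -0.59 and 0.0306 without the 3 arrays). Scn8a, which serves mature axons, was at 6.34, 6.14 and 6.43 in GBS and at 6.81, 6.67 and 6.72 in Control (-0.43, limma adjusted p = 0.059; -0.44 and 0.00556 without the 3 arrays), and it was called in 6 of 21 settings. Its groups were apart, whereas those of Scn3a overlapped. Scn9a, better known from sensory neurons, differed by -0.65 (limma adjusted p = 0.0639), and the beta subunits Scn3b and Scn2b by -0.75 and -0.26 (limma adjusted p = 0.18 and 0.166).

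Kv channel pores end the action potential. Of 15 tested genes of the Kcna, Kcnb, Kcnc and Kcnd families 4 fell and 0 rose, with differences from -0.50 to 0.00 and a median of -0.31. Kcnb2, a delayed rectifier, was at 6.09, 5.76 and 5.98 in GBS and at 6.48, 6.45 and 6.40 in Control (-0.50, limma adjusted p = 0.0289). Its GBS values lay near the dim end, close to those of Kcnip2 in GBS (5.91, 5.91 and 5.94), a gene too dim to be tested. Kcnd3, which carries the fast transient A-type current, was at 6.61, 6.48 and 6.70 in GBS and at 6.94 on all 3 Control arrays (-0.35, limma adjusted p = 0.0184). In Kcnb2 and Kcnd3 the GBS arrays were the lowest of the 12. Kcnc1, a channel of fast-spiking neurons, was at 6.44, 6.34 and 6.42 in GBS and at 6.67, 6.74 and 6.76 in Control (-0.33, limma adjusted p = 0.0263). Kcna3 was at 7.26, 7.26 and 7.23 in GBS and at 7.61, 7.58 and 7.49 in Control (-0.31, limma adjusted p = 0.018). Those 4 calls ended without GBS replicate 2 or Control replicate 1 or 2, those of Kcnb2, Kcnc1 and Kcna3 also without GBS replicate 3, and those of Kcnb2, Kcnc1 and Kcnd3 also without Control replicate 3. The receptor level as a covariate ended those of Kcnc1 and Kcnd3 (limma adjusted p = 0.117 and 0.0767). Centring arrays on their medians ended that of Kcnb2. Kcnd2, the other main A-type pore of brain, was at 7.79, 7.52 and 8.20 in GBS and at 8.50, 8.19 and 8.04 in Control, which overlap (-0.41, limma adjusted p = 0.3; -0.51 and 0.0437 without the 3 deviating arrays). Of 9 tested electrically silent subunits, which only modify Kcnb pores, Kcng4 fell (-0.44, limma adjusted p = 0.0426). Its GS arrays, at 6.29, 6.32 and 6.63, lay near the GBS arrays at 6.38, 6.28 and 6.25. The call ended without any 1 GBS or Control array or GS replicate 1 or 2, and with the receptor level as a covariate (-0.12, limma adjusted p = 0.477).

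Kcnq channels carry the M-current that damps repetitive firing, and 2 of the 3 tested fell. Kcnq5 was at 6.82, 6.17 and 6.68 in GBS, at 7.44, 7.62 and 7.04 in Control, at 7.15, 7.10 and 7.38 in GB, and at 7.70, 7.49 and 7.11 in GS (-0.81 ± 0.208 SE against Control; limma adjusted p = 0.0277). Kcnq3 was at 7.40, 7.22 and 7.44 in GBS and at 7.79, 7.73 and 7.68 in Control (-0.38, limma adjusted p = 0.0259). For both the GBS arrays lay below all others, and both calls ended without GBS replicate 2 or Control replicate 1 or 2, that of Kcnq3 also without Control replicate 3. Both also ended with arrays centred on their medians. Of the 5 tested Kcnh genes, relatives of the ether-a-go-go channel, 0 passed limma's test against Control, with 2 at an unadjusted p under 0.05; Kcnh7 had the largest difference, at 6.39, 5.41 and 6.78 in GBS and at 7.19, 7.27 and 6.87 in Control (-0.91, limma adjusted p = 0.0688).

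Inward rectifiers let potassium in more easily than out and help glia to clear it. Of 11 tested 1 fell, Kcnj10, the main inward rectifier of astrocytes and oligodendrocytes. Its values were 6.29, 5.95 and 5.86 in GBS, 6.64, 6.61 and 6.63 in Control, 6.13, 6.63 and 6.49 in GB, and 6.41, 6.65 and 6.76 in GS. The GBS arrays lay below Control, while GB replicate 1 lay among them. GBS replicates 2 and 3 lay near the GBS values of Kcnip2 (5.91, 5.91 and 5.94), a gene too dim to be tested. The difference of Kcnj10 from Control was -0.59 (limma adjusted p = 0.0277). That call ended without GBS replicate 2 or 3, without any 1 Control array, and with the receptor level as a covariate (-0.33, limma adjusted p = 0.245). Kcnj13, a gene of choroid plexus that was also in that marker list and was chosen after its values were seen, was at 7.59, 7.92 and 7.74 in GBS and at 7.54, 7.43 and 7.87 in Control, with overlap (0.14, limma adjusted p = 0.632).

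Auxiliary potassium channel subunits fell in 2 of 13 tested. Kcnip3 (probe set 10487392) encodes a calcium sensor that binds Kv pores of the Kcnd family and can also act on DNA. It was at 7.32, 7.24 and 7.35 in GBS, at 7.75, 7.67 and 7.56 in Control, at 7.70, 7.69 and 7.68 in GB, and at 7.79, 7.81 and 7.73 in GS. The GBS arrays lay below all 9 others. The difference from Control was -0.35 ± 0.0789 (SE; limma adjusted p = 0.0152), ending without GBS replicate 2 or Control replicate 1 or 2. Kcnmb4, the neuronal partner of Kcnma1, was at 6.57, 6.59 and 6.66 in GBS and at 6.88, 6.92 and 6.85 in Control (-0.28, limma adjusted p = 0.0496), and held in 9 of 22 settings, ending without any 1 GBS or Control array, among others. None of the 3 opposite-strand RNAs passed limma's test, with differences from -0.38 to -0.20 and 1 unadjusted p under 0.05.

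The comparison of GBS with GS asks what the Ctnnb1 allele adds to SmoM2, and that with GB what SmoM2 adds to the Ctnnb1 allele. These share the GBS arrays with each other and with the comparison above, so their values are set side by side. Against GS 2 channel genes were higher and 15 lower, where 3.56% of all tested genes were higher and 1.51% lower. Against GB 2 were higher and 14 lower, where 9.6% and 3.12% of all tested genes were. Kcnk9 and Cacng5 were the higher genes both times, Cacng5 by 0.38 and 0.36 (limma adjusted p = 0.0301 and 0.0283), calls that ended without any 1 GBS array. With arrays centred on their medians 7 were lower against GS and 8 against GB, beside 2 higher each time, where 0.986% and 1.8% of all tested genes were lower. Without GBS replicate 2 the counts against GS were 1 higher and 3 lower (Cacna1d, Kcnd3 and Kcnip3), and against GB 0 and 0, where 0.331% and 0.176% of all tested genes were lower. Without GS replicate 1 or 2 the lower genes against GS numbered 3 and 2 (0.359% and 0.317% of all tested genes), and without GB replicate 2 they numbered 27 (4.09% of all tested genes). Leaving out a Control array left 6 to 8 lower against GS and 7 or 8 against GB. Of all tested genes 0.867% to 0.909% and 1.15% to 1.39% were lower in these settings. Without the 3 deviating arrays 33 were lower in each, where 8.77% of all tested genes were lower against GS and 7.09% against GB. The sexes of these groups differed as given above, and their part was not tested.

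**Figure D3:**
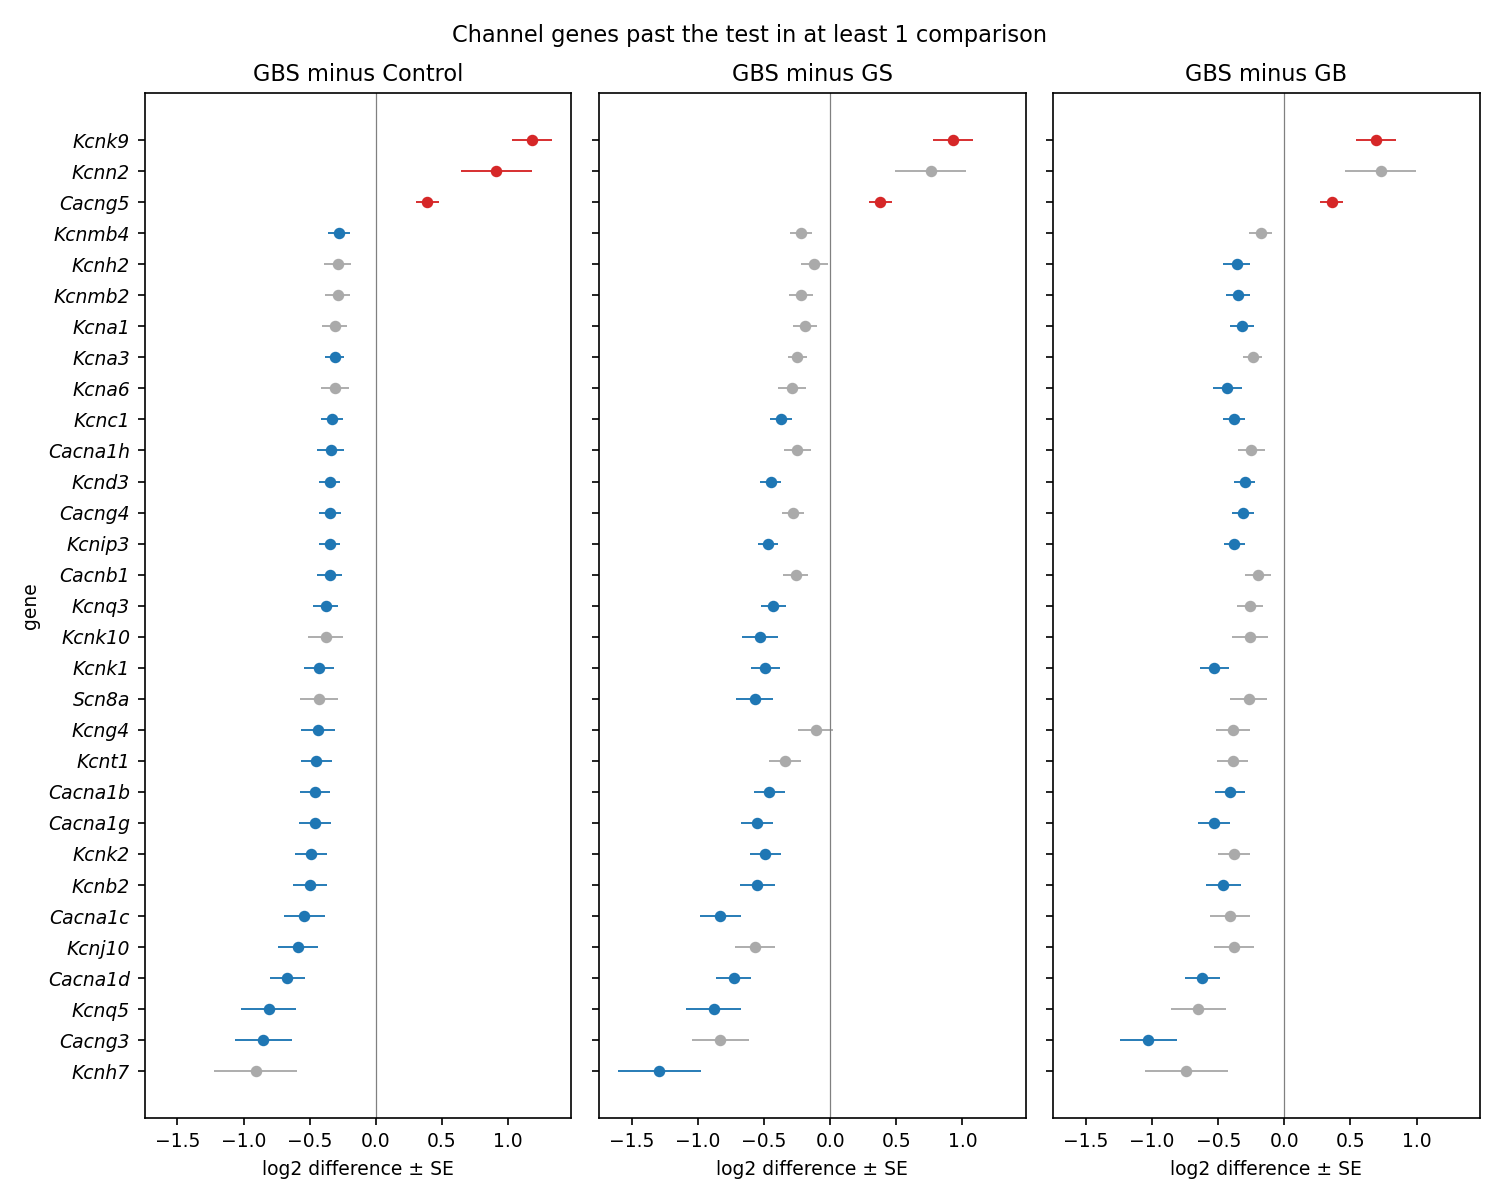
Log2 difference ± SE (horizontal axis) of the 31 channel genes that passed the test in at least 1 of the 3 comparisons (vertical axis), for GBS against Control, GS and GB. Red and blue points passed the test as higher and lower, grey points did not; the 3 comparisons share the GBS arrays, and Kcnk9, Kcnn2 and Cacng5 lie right of 0 in each while the other 28 lie left.

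Against GS the falls were led by Kcnh7 (-1.29, limma adjusted p = 0.0387), Kcnq5 (-0.88, limma adjusted p = 0.0359) and Cacna1c (-0.83 ± 0.153 SE, limma adjusted p = 0.0117). Kcnh7, a channel related to that of the heart's repolarising current, was at 7.66, 7.67 and 7.13 in GS, above each GBS array, and its call held in 9 of 22 settings. Cacna1c was at 7.62, 7.65 and 7.29 in GS, again above every GBS array, and its call ended without GBS replicate 2 or GS replicate 1 or 2. Scn8a was at 7.02, 7.08 and 6.51 in GS and was the only sodium channel gene called in any of the 3 comparisons (-0.57, limma adjusted p = 0.0423), in 7 of 21 settings. Cacna1d (-0.73, limma adjusted p = 0.00973) and Kcnip3 (-0.47, limma adjusted p = 0.00704) held in all 22 settings, and Kcnd3 (-0.45, limma adjusted p = 0.00991) in 21, ending without GS replicate 2. Kcnb2 and Cacna1g, a delayed rectifier and a T-type pore, both differed by -0.55 (limma adjusted p = 0.0366 and 0.0271). In GBS Kcnb2 lay near the dim end, as given above.

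Against GB the falls were led by Cacng3 (-1.03 ± 0.215 SE, limma adjusted p = 0.0151), Cacna1d (-0.62, limma adjusted p = 0.0161) and Kcnk1 (-0.53, limma adjusted p = 0.0141). Cacng3 was at 6.31, 6.29 and 6.48 in GB, well apart from GBS, where it lay near the dim end as given above. Kcnk1 was at 7.71, 7.85 and 7.59 in GB, also above every GBS array. Cacna1g fell by 0.53 on the log2 scale (limma adjusted p = 0.0211), Kcnb2 by 0.46 (limma adjusted p = 0.0459), and Kcna6, a Kv pore of axons, by 0.43 (limma adjusted p = 0.0297). Kcna6 was at 6.48, 6.85 and 6.54 in GB and at 6.22, 6.14 and 6.22 in GBS, with no overlap, and held in 13 of 21 settings. Each of these 6 calls ended without GBS replicate 2, that of Cacna1g also without GBS replicate 3, and that of Kcna6 also without GB replicate 2 or GBS replicate 1 or 3. The call of Kcnb2, which lay near the dim end in GBS, held in 7 of 21 settings.

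In mice with only 1 of the alleles no channel gene passed the test against Control. Both of these groups also differed from Control in Cre and, by Xist, in sex, as given above. Cre cannot be told apart from the allele here, and the part of sex was not tested. In GS against Control 0 of 110 passed limma's test, where 0.0211% of all tested genes were higher and 0% lower, and 5 had an unadjusted p under 0.05, all lower. The median was -0.07. The lowest unadjusted p was that of Kcnj8, an inward rectifier of pericytes and smooth muscle that was chosen after its values were seen, at 6.65, 6.69 and 6.56 in GS and at 6.97, 6.89 and 7.08 in Control (-0.35, limma adjusted p = 0.645). Without the 3 deviating arrays 2 genes were called, Cacna1e higher and Kcng4 lower (0.909% of the tested channel genes in each direction), where 9.86% of all tested genes were higher and 2.21% lower. In GB against Control 0 passed, where 0% of all tested genes were called higher and 0% lower, and 1 had an unadjusted p under 0.05: Kcnk9, whose GB arrays lay above Control by 0.50 ± 0.151 (SE; limma adjusted p = 1).

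The interaction term, the difference of GBS from GS less that of GB from Control, asks whether allele effects add up on the log2 scale. Control, the only genotype without Cre, enters this term, and the sexes of the groups differed as given above. Cre thus cannot be told apart from the alleles in it, and the part of sex was not tested. No channel gene passed limma's test, where 0.324% of all tested genes were higher and 0.00704% lower. Unadjusted p-values below 0.05 were found for 20, of which 1 was higher and 19 lower, with Kcnip3 first (-0.50 ± 0.112 SE; limma adjusted p = 0.139). Without the 3 deviating arrays 8 genes passed, all lower: Cacna1c, Cacna1e, Cacnb4, Kcnip1, Kcnma1, Kcnt2, Scn1a and Scn3a. In that setting 2.06% of all tested genes were lower and 0.845% higher. With the receptor level as a covariate 5 passed, all lower (Cacna1c, Cacna1e, Cacnb4, Kcnip3 and Kcnma1), where 0.726% of all tested genes were lower and 1.03% higher.

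**Figure D4:**
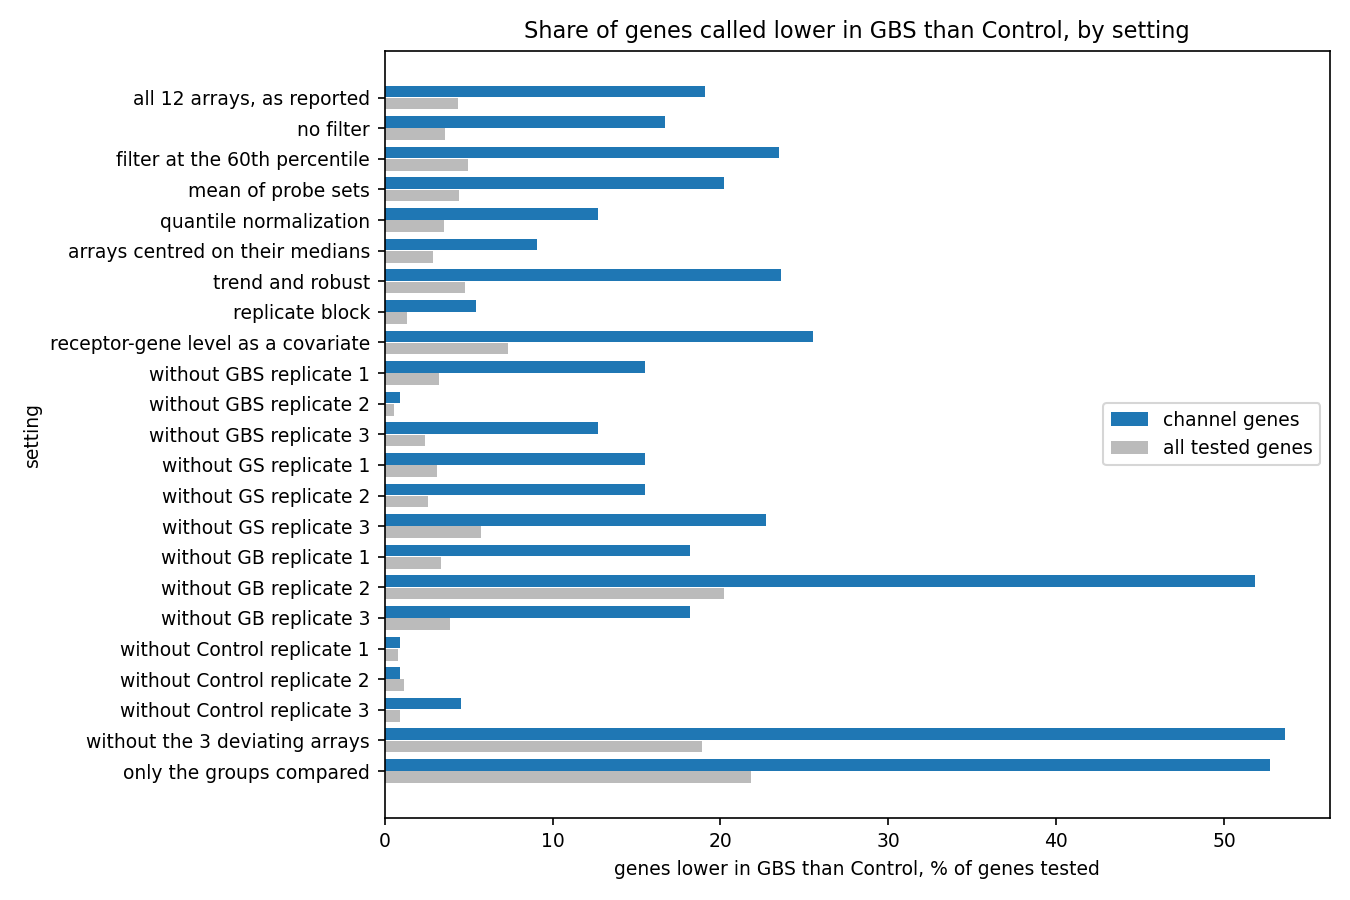
Share of tested genes called lower in GBS than Control (horizontal axis, percent) under each setting (vertical axis), for channel genes (blue) and all tested genes (grey). With all 12 arrays the shares are 19.1% and 4.35%; the blue bar is longer than the grey one in every setting but 1, without Control replicate 2, and without GBS replicate 2 or Control replicate 1 or 2 they are at most 0.909% and 1.18%.

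Genes that work with these channels were read from a list of 41 partners and ion transport genes, 35 of them tested. In GBS against Control 2 rose and 3 fell, with a median of -0.29. These were 5.71% and 8.57% of the 35, beside 11% higher and 4.35% lower of all tested genes. Whether the calls of these genes held in the other settings was not read. Nalcn, the sodium leak channel that sets a steady inward current, was at 8.51, 9.18 and 8.40 in GBS, at 7.47, 7.39 and 7.18 in Control, at 7.54, 7.14 and 7.67 in GB, and at 7.68, 7.75 and 7.09 in GS. All GBS arrays lay above the rest (1.35 ± 0.234 SE; limma adjusted p = 0.00483). Unc80, which the Nalcn channel complex needs, fell by 0.36 on the log2 scale (limma adjusted p = 0.0225), from 7.36, 7.42 and 7.50 in Control to 7.09, 6.99 and 7.11 in GBS. Slc12a2, the cotransporter that loads immature neurons with chloride, was at 9.70, 10.32 and 9.51 in GBS and at 8.17, 8.14 and 7.68 in Control (1.84 ± 0.486 SE; limma adjusted p = 0.03). Its GB arrays ran from 6.66 to 8.74 and its GS arrays from 7.97 to 9.01, all below GBS. Camk2b, a calcium-dependent kinase of neurons, and Atp2b2, a calcium pump of the plasma membrane, fell by 0.62 and 0.41 on the log2 scale (limma adjusted p = 0.00692 and 0.0288).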

How the data were processed

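Total RNA of 12 mice was hybridised to Affymetrix gene arrays, 1 array a mouse. Per the submitters' processing notes, the authors used Affymetrix Expression Console and RMA to make the deposited log2 values; software version, probe library and genome build were not given in the sources used here. RMA sets each probe set relative to all arrays, and the number of arrays limits the precision.

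Of 35556 probe sets, 21789 carried 1 gene symbol in the platform annotation, 1621 several and 12146 were not listed; 21698 were named through the gene ID. The brightest probe set stood for a gene. Group means of all 4 groups were fitted with limma 3.58.1 (R 4.3.3), with empirical Bayes and Benjamini-Hochberg adjustment over 14195 genes, and the code was tested on simulated data. Named genes were a fixed list of channel genes, the 12 largest called rises and falls against Control, the 6 largest of each against GS and GB, and up to 3 genes of lowest adjusted p in a family; the text marks others. The members and lists were chosen with earlier results of these data known. Alternatives changed the filter, probe set choice, normalization, variance model, replicate block, receptor covariate and the arrays used. Promoter sequences are RefSeq's.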

Additional observations from a re-analysis of the deposited data

How the results depend on the processing

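With all 12 arrays 3 channel genes were higher and 21 lower in GBS than Control, 2 and 15 than GS, and 2 and 14 than GB. Shares of all tested genes in the same setting follow in brackets. Against Control the higher genes numbered 5 without the 3 deviating arrays (23.5%) and 6 with only the groups compared (24.4%). The lower ones numbered 10 with centred arrays (2.87%), 59 without the 3 arrays (18.9%) and 58 with only the groups compared (21.8%). Against GS the higher genes numbered 1 after quantile normalization (2.99%) and 4 without the 3 arrays (8.2%). The lower ones numbered 9 after quantile normalization (1.25%), 7 with centred arrays (0.986%), 34 with the receptor covariate (8.89%), 33 without the 3 arrays (8.77%) and 5 with only the groups compared (0.888%). Against GB the higher genes numbered 1 after quantile normalization (6.69%), 1 with the covariate (3.68%) and 0 with only the groups compared (0.542%). The lower ones numbered 9 with the filter at the 60th percentile (3.4%), 8 with centred arrays (1.8%), 33 without the 3 arrays (7.09%) and 0 with only the groups compared (0%). GS against Control gave 2 calls without the 3 arrays, and the interaction 5 with the covariate and 8 without the 3 arrays, beside the shares given above. Leaving out 1 array at a time gave 1 to 5 higher (4.45% to 23.0%) and 1 to 57 lower (0.549% to 20.2%) against Control. It gave 1 to 4 (1.74% to 7.75%) and 2 to 27 (0.317% to 4.09%) against GS, and 0 to 4 (2.79% to 15.5%) and 0 to 19 (0.176% to 7.36%) against GB. Cacna1a against Control changed sign with the covariate, from 0.12 to -0.03. The causes were not tested.

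Replicate numbers did not pair the samples: deviations of same-numbered arrays correlated from -0.818 to 0.739, over 0.1 in 7 of 18 pairs. With the replicate block 2 genes were higher and 6 lower in GBS than Control, 1 and 4 than GS, and 0 and 5 than GB. Of all tested genes 7.0% and 1.34%, 2.14% and 0.62%, and 4.61% and 0.5% were.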
